A study of Mus musculus with 2 samples.

Results

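The mouse trypsinogen genes Prss1, Prss2, Prss3, Try4, Try5, Try10, 1810009J06Rik and 2210010C04Rik and the trypsin inhibitor gene Spink1, whose older name is Spink3, were followed in the pancreas of mice without and with deletion of the metalloendopeptidase gene Nrdc (nardilysin). Members were the non-control array probes whose RefSeq accession belongs to one of these 9 genes. Of the 9 genes, 8 had such a probe, each with 1 probe and 1 spot, out of 56604 probes and 22911 named genes in all. Try10 had no probe named here and has no value. RNA of whole pancreas was taken from males of the strain C57BL/6 aged 5 weeks, 1 of them WT and 1 Nrdc-cKO, and each sample was hybridised to 1 Agilent array. The Nrdc-cKO mouse had the genotype Ptf1a-Cre; Nrdc flox/flox, in which Cre recombinase made from the Ptf1a gene removes the floxed Nrdc alleles in cells that have expressed Ptf1a, a pancreatic progenitor and acinar transcription factor. The labels do not say whether the WT mouse carried Cre or floxed alleles. With 1 array per group no test can be made and no spread between animals is known, and the number of arrays limits the precision. The genes were selected on the log2 differences between these arrays, so every value below is a description.

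Trypsinogens are inactive precursors of trypsin, a protease that cuts proteins after lysine and arginine. Acinar cells, the enzyme-making cells of the exocrine pancreas, pack them into zymogen granules and release them towards the gut, where enteropeptidase cuts off the activation peptide and trypsin then activates the other zymogens. Spink1, a small Kazal-type inhibitor made by the same cells, blocks trypsin that becomes active too early inside the gland. In the mouse the trypsinogens form a family of related genes among the segments of the T cell receptor beta locus on chromosome 6. An array probe for one can therefore take up transcripts of another.

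Nrdc itself had a processed signal of 270.4 in WT and 93.9 in Nrdc-cKO. After each array was scaled to its 75th percentile, this was a log2 difference, Nrdc-cKO minus WT, of -3.21, and the labels do not say whether its probe lies in the deleted part. All 12 acinar identity genes looked at, among them Ptf1a, Bhlha15 and Gp2, were well above background on both arrays. Signal well above background was seen at 46.3% of non-control spots in WT and 60.3% in Nrdc-cKO. The 75th percentile of the signal was 70.8 on WT and 227.5 on Nrdc-cKO, so scaling lowered every Nrdc-cKO value by 1.68 on the log2 scale relative to WT. The scanner software's own error was 10% of a signal for most members, which gives an error of 0.20 on a log2 difference (0.21 for 1810009J06Rik), and it covers the spot measurement only.

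The members behaved in 3 ways. The trypsinogens Prss2, Prss3, Try4, Try5 and 2210010C04Rik had nearly the same signal on both arrays before scaling and were therefore 2.62-fold to 3.35-fold lower on the Nrdc-cKO array after it. Prss1 and 1810009J06Rik were higher on the Nrdc-cKO array before and after scaling, 1810009J06Rik by 547-fold after scaling. Spink1 lay between these, with a signal 2.09 times as high on the Nrdc-cKO array before scaling and 1.54-fold lower after it. At a threshold of 2-fold, 5 of the 8 members were lower and 2 were higher. The same thresholds were passed by 19.8% and 10.0% of the 24337 probes detected on both arrays. Among the 200 other probes of highest mean level, which are nearer to the members in brightness, 87 were lower and 3 higher by this threshold. Lower values were thus common among bright probes in general, and higher values were rare.

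**Figure D1:**
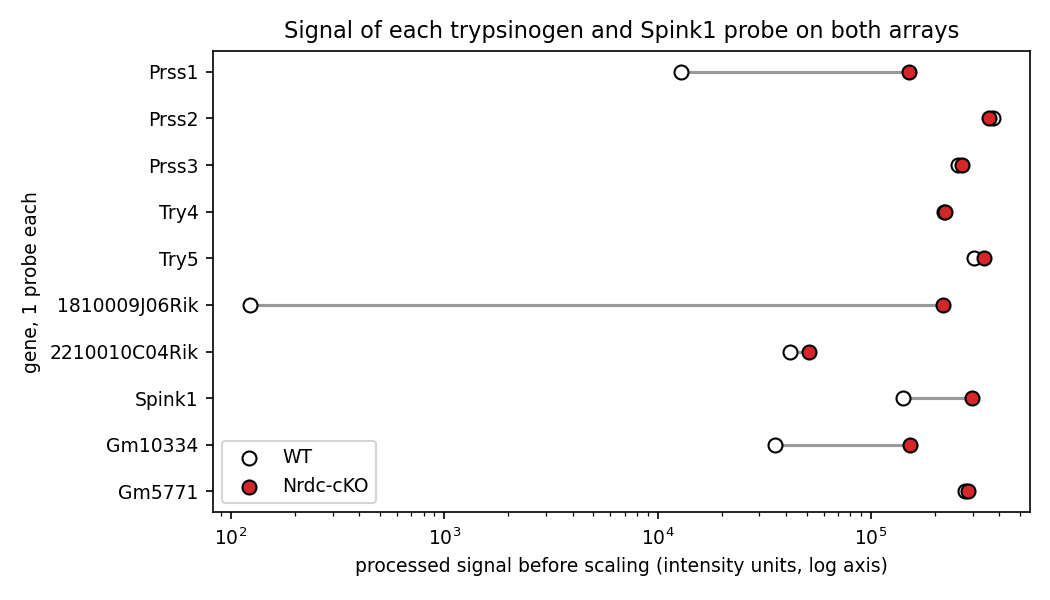
Processed signal before scaling (intensity units, log axis) of the 1 probe of each gene on the WT array (white points) and the Nrdc-cKO array (red points), joined by a line, with 2 further trypsinogen-like genes, Gm10334 and Gm5771, at the bottom. The points lie almost on each other for Prss2, Prss3, Try4 and Try5, while 1810009J06Rik runs from 123.2 to 216534.

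1810009J06Rik, a trypsinogen-like gene at one end of the cluster, had a signal of 123.2 in WT and 216534 in Nrdc-cKO. The spot was well above background on both. Its log2 difference of 9.10 was the highest of all 24337 probes detected on both arrays, and the next probe stood at 7.99. Probes detected on the Nrdc-cKO array alone are outside this ranking. Among their genes, the fat cell marker Cfd was at least 1360-fold higher, against 547-fold for 1810009J06Rik. In the order of all 56604 probes by signal, it went from place 11186 on the WT array to place 36 on the Nrdc-cKO array. On the WT array, where most other trypsinogen probes were among the brightest, this probe took up at most its total signal of 123.2, whatever transcripts that came from. The value rests on this 1 probe. With 1 mouse per genotype, an effect of the deletion and any other difference between the mice at the trypsinogen cluster cannot be told apart.

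Prss1, a trypsinogen gene near the other end of the cluster, had a signal of 12911 in WT and 150022 in Nrdc-cKO. This was 11.6 times as high before scaling, and after scaling the log2 difference was 1.85, or 3.62-fold higher. It moved from place 521 to place 61 in the order of signals. Of all probes detected on both arrays, 3.27% had a higher log2 difference than Prss1, and of the 200 bright probes 2 had. Every scaling that was tried left Prss1 and 1810009J06Rik higher on the Nrdc-cKO array, with log2 differences from 1.85 to 3.75 for Prss1 and from 9.03 to 10.99 for 1810009J06Rik.

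**Figure D2:**
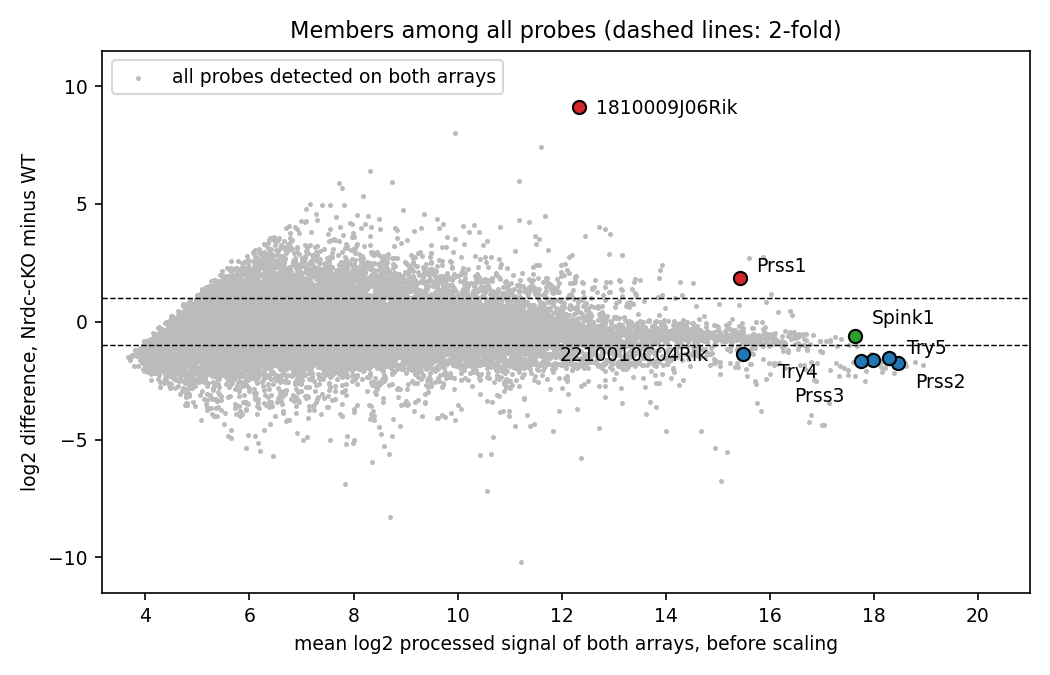
Log2 difference, Nrdc-cKO minus WT, after 75th-percentile scaling (vertical axis) against the mean log2 processed signal of both arrays before scaling (horizontal axis) for the 24337 probes detected on both arrays (grey) and the 8 members (coloured). 1810009J06Rik stands above all other probes at 9.10, Prss1 lies above the band of bright probes at 1.85, and the other trypsinogens lie inside that band between -1.74 and -1.39, with 49 of the 200 bright probes below all of them.

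Prss2, which encodes anionic trypsinogen, had the brightest member probe, with a signal of 371593 in WT and 356856 in Nrdc-cKO. It held place 6 of all probes on both. Its log2 difference of -1.74 (3.35-fold lower) was close to the -1.68 that scaling gives to a probe with equal signals. Try5 went from 303213 to 337078, a log2 difference of -1.53. Prss3 went from 254671 to 266760, a log2 difference of -1.62. The Try4 signals of 219715 and 222870 were the most alike of all members, and its log2 difference was -1.66. These genes kept their places near the top of both arrays, with Prss3 at places 27 and 25 and Try4 at places 34 and 35. 2210010C04Rik, which encodes the mouse cationic trypsinogen, was dimmer, with signals of 41535 on WT and 51035 on Nrdc-cKO and a log2 difference of -1.39. It went from place 171 to place 272.

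Across these 5 trypsinogens the signal ratio of Nrdc-cKO to WT ran only from 0.960 to 1.23 before scaling, and the log2 differences spanned 0.36. That span is small beside the 10.84 over all 8 members. Over all 7 measured trypsinogens the median log2 difference was -1.53 and the mean was 0.43, because 1810009J06Rik pulls the mean up. No spot on either array was saturated, and the highest signals of all were 532782 on WT and 475276 on Nrdc-cKO. Whether the response of the brightest probes is compressed was not tested. The values do not show whether the RNA of these 5 trypsinogens fell at all. If it fell, fewer acinar cells and less RNA per acinar cell cannot be told apart in whole tissue.

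**Figure D3:**
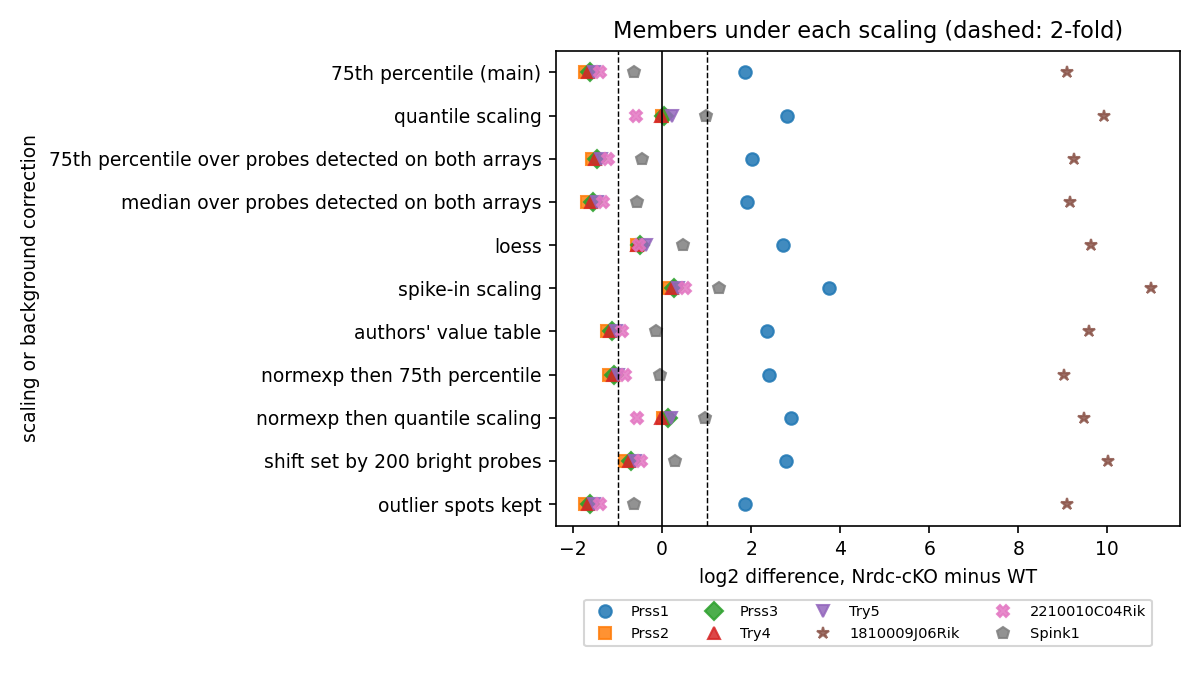
Log2 difference, Nrdc-cKO minus WT, of each of the 8 members (symbols) under the 75th-percentile scaling and 10 alternatives (rows), with 0 as a solid line and 2-fold as dashed lines. Prss2, Prss3, Try4, Try5 and 2210010C04Rik move from beyond the lower 2-fold line to between -0.59 and 0.51 with quantile scaling and spike-in scaling, whereas Prss1 and 1810009J06Rik stay beyond the upper line.

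The direction given for these 5 genes therefore rests on the scaling. With spike-in scaling, which uses 8 Agilent spike-in control probes although the labels name no spike-in, all 5 had log2 differences above 0, from 0.15 for Prss2 to 0.51 for 2210010C04Rik. With quantile scaling they lay from -0.59 to 0.21, and with a shift set by the 200 bright probes from -0.82 to -0.47. The median of all probes detected on both arrays moved too. It was 1.63 with spike-in scaling, -0.13 with quantile scaling and 0.66 with the bright-probe shift. All 5 genes thus lay below the median probe with spike-in scaling and with the bright-probe shift.

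Spink1, the inhibitor, had a signal of 141764 in WT and 296099 in Nrdc-cKO, and went from place 49 to place 15. After scaling its log2 difference was -0.62, or 1.54-fold lower, which did not pass 2-fold. The median of all probes detected on both arrays was -0.26, and 33.5% of them lay below Spink1. Of the 200 bright probes, 44 had a higher log2 difference than Spink1. Its sign changed with the scaling, from -0.62 to 1.27 over the alternatives, with 5 of 10 below 0 and 5 above.

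The gap between 2 probes on the same arrays does not move when an array is multiplied by a constant, so the balance of inhibitor and protease signals depends less on scaling. The log2 difference of Spink1 was 0.91 above the trypsinogen median, and it ranged from 0.82 to 0.996 above it over all alternatives. Against the 5 trypsinogens with similar signals, Spink1 gained most on Prss2, by 1.12 (2.17-fold), followed by Try4 at 1.04, Prss3 at 0.996, Try5 at 0.91 and 2210010C04Rik at 0.77. Against Prss1 the gap went the other way, with Prss1 2.48 above Spink1 on the log2 scale. 1810009J06Rik was 9.72 above it. These gaps are all larger than the spot error of a gap, which was 0.29 for pairs of trypsinogen probes, but they carry no error across animals.

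The promoters of the cluster were compared because its trypsinogen genes are related. 1810009J06Rik had no promoter window here and was not compared. RefSeq promoter windows (build GRCm38.p6) were found for 5 of the 8 trypsinogens, Prss1, Prss2, Prss3, Try4 and 2210010C04Rik. Windows were also found for the neighbouring trypsinogen-like genes Gm5771, Gm10334 and Gm2663, the last without a probe named here. The 200 bases before the annotated start are shown for the 2 closest pairs, 5′ to 3′. Capitals mark the E-box CACCTG, which reads CAGGTG when it lies on the other strand. They also mark the box TTTCCC, which reads GGGAAA when it lies on the other strand, and the box TATAAA on the strand of the gene. The windows are chr6:41458730-41458929 (plus strand) for Prss1, chr6:41392156-41392355 (plus strand) for Gm5771, chr6:41377614-41377813 (minus strand) for Prss3 and chr6:41446098-41446297 (minus strand) for Gm10334.
Prss1: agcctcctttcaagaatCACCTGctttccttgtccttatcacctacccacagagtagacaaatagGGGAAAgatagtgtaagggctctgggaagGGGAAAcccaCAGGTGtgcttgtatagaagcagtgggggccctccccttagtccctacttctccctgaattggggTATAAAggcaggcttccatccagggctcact
Gm5771: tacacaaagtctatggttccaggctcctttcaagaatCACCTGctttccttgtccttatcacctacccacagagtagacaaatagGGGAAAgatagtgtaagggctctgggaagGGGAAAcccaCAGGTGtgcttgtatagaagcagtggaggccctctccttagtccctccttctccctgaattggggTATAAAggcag
Prss3: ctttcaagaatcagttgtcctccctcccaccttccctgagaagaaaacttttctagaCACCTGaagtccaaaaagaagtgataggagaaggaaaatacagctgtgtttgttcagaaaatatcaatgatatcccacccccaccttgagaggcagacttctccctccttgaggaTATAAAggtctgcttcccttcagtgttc
Gm10334: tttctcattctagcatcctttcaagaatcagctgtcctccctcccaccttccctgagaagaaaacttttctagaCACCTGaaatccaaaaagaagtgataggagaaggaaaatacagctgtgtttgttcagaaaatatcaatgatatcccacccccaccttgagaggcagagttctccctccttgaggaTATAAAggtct

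Prss1 and Gm5771 had 98.3% identical bases over 230 aligned positions upstream of their starts. Their probes nevertheless stood apart, with Gm5771 at signals of 277029 on WT and 285731 on Nrdc-cKO, a log2 difference of -1.64, against 1.85 for Prss1. The gap was 3.49 on the log2 scale, or 11.3-fold. Prss3 and Gm10334 were 97.0% identical over 233 positions. Gm10334 went from 35318 to 153143, a log2 difference of 0.43, which is 2.05 above Prss3. Before scaling, the median probe detected on both arrays was 1.42 higher on the log2 scale in Nrdc-cKO, against 2.12 for Gm10334, 0.07 for Prss3, 3.54 for Prss1 and 0.045 for Gm5771. Gm10334 was within 2-fold after scaling. How much of each signal came from the partner with the near-identical promoter was not tested, since the probe sequences were not used here. Identity of the transcripts was not computed.

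The complex PTF1, which contains Ptf1a and its partner Rbpjl, is known to drive acinar enzyme genes through an E-box paired with a TTTCCC-like box. In the 250 bases before the start, CACCTG was found on either strand in 5 of 5 trypsinogen promoters, against 17.1% of 27025 promoters. TATAAA was found on the gene's strand in 5 of 5, against 8.12%, and TTTCCC on either strand in 2 of 5, against 21.9%. Prss1 had CACCTG starting 183 bases and CAGGTG 96 bases before the start, GGGAAA at 135 and 106 bases and TATAAA at 31 bases. Prss2 also had both boxes, with CACCTG at 169 bases and GGGAAA at 110 and 78 bases. Family members share sequence by descent, so these matches are not independent of each other, and a match does not show a bound site. Ptf1a had a log2 difference of -2.72 and Rbpjl of -1.30. Before scaling these were -1.04 and 0.39, so the direction for Rbpjl rests on the scaling. Whether either bears on the trypsinogen values was not tested.

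**Figure D4:**
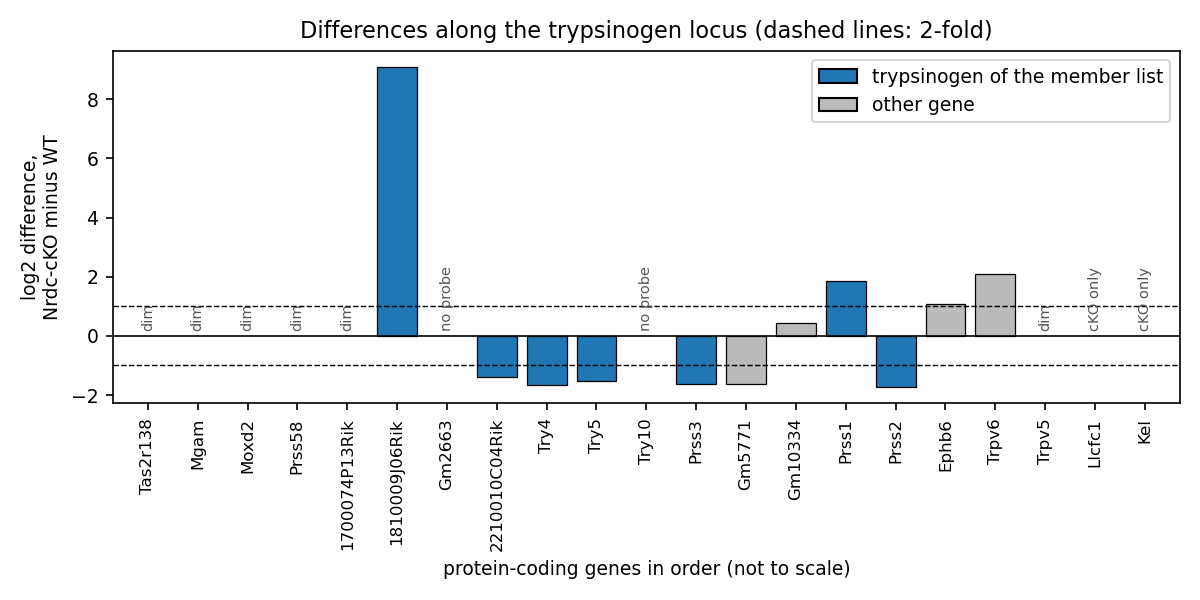
Log2 difference, Nrdc-cKO minus WT, of protein-coding genes in their order along the trypsinogen cluster and its flanks (horizontal axis, not to scale), with listed trypsinogens in blue and other genes in grey; "dim" marks genes not well above background on either array, and "cKO only" genes detected on the Nrdc-cKO array alone. The 2 higher trypsinogens, 1810009J06Rik at 9.10 and Prss1 at 1.85, are not neighbours, and the genes between them run from -1.66 to 0.43.

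Along the chromosome, 1810009J06Rik and Prss1 lie near opposite ends of the cluster. Between them lie 2210010C04Rik, Try4, Try5, Prss3 and Gm5771, which had log2 differences from -1.66 to -1.39, and Gm10334 at 0.43. Gm2663, next to 1810009J06Rik, and Try10 had no probe named here. The neighbours of Prss1 on either side were thus Gm10334 at 0.43 and Prss2 at -1.74.

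The other digestive enzymes of acinar cells were all lower after scaling. Of 20 measured genes, 20 were at least 2-fold lower, with a median log2 difference of -1.84, against 17.3% of 13001 named genes with a median over all probes of -0.26. The share of named genes at least 2-fold higher was 12.8%. Of the 200 bright probes, 87 were at least 2-fold lower. The chymotrypsin-like protease Ctrl (-4.36), the lipase Pnlip (-4.25) and the ribonuclease Rnase1 (-3.79) were lowest. Of the 20 enzymes, 13 lay below the lowest trypsinogen, Prss2, and 7 lay among the 5 similar trypsinogens. Among the 13, Ctrb1 (-1.74), Cpb1 (-1.79) and Cela3a (-1.79) lay nearer to Prss2 (-1.74) than the spot error of 0.20. The values therefore do not resolve this split. Spink1 lay above all 20, by 1.21 above their median (2.32-fold). Before scaling the median of the enzymes was -0.15, against 1.06 for Spink1. How far these enzymes were lower therefore rests on the scaling. Among the 100 brightest named-gene probes, those with a log2 difference nearest to the trypsinogen median over these 2 arrays included the lipase-related gene Pnliprp1 (-1.56), the phospholipase Pla2g1b (-1.58), Gm5771 (-1.64) and colipase, Clps (-1.68). Those nearest to Spink1 were Pbld1 (-0.62), the ribosomal protein genes Rpl31 (-0.63) and Rplp0 (-0.61), Fam177a2 (-0.60) and Ttc38 (-0.65).

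After 75th-percentile scaling, enzymes that switch trypsinogen on or off did not pass 2-fold. Cathepsin B (Ctsb), a lysosomal protease that can activate trypsinogen, had levels of 5.91 on WT and 6.75 on Nrdc-cKO, as log2 relative to the 75th percentile, and a log2 difference of 0.84. Cathepsin L (Ctsl), which can degrade trypsinogen, stood at -0.60, and cathepsin D (Ctsd), which can activate cathepsin B, at -0.52. Ctsb thus gained 1.44 on Ctsl. Before scaling the log2 differences were 2.52 for Ctsb, 1.08 for Ctsl and 1.16 for Ctsd. The median probe detected on both arrays stood at 1.42 before scaling, so whether Ctsb passes 2-fold depends on the scaling. Enteropeptidase (Tmprss15), an enzyme of the gut lining, was not well above background on either array, and Ctrc, a chymotrypsin that degrades trypsinogen, had no probe named here.

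Other inhibitors of trypsin-like proteases were mixed. Of 12 genes, 9 were measured on both arrays, with 5 at least 2-fold lower, 1 higher and a median of -1.79, against 17.3% lower and 12.8% higher among all named genes. Serpini2, a serpin made in the pancreas, stood at -2.02 and the membrane inhibitor Spint2 at -1.79, while Spint1 was at -0.34. The alpha-1-antitrypsin genes, which are close copies of each other, ranged from -3.24 for Serpina1c through -2.23 for Serpina1a and -1.86 for Serpina1e to -0.15 for Serpina1b, and Serpina1d was not well above background. The probes of Serpina1e disagreed, at -3.14 and -0.57. Ambp, whose protein is cut into alpha-1-microglobulin and the trypsin inhibitor bikunin, was the exception at 3.71 (13.1-fold higher). Slpi stood at 0.28 with its 2 probes at -0.79 and 1.35. A2m was not well above background on either array, and Pzp, detected in Nrdc-cKO alone, was at least 1.91-fold higher. The "at least" value sets the level on the array with signal against the higher of the lowest detected level and the probe's own level on the other array.

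Spink1 was the single Kazal-type Spink gene measured on both arrays. Of 12 others, 10 were not well above background on either array. Spink4, detected in Nrdc-cKO alone, was at least 2.63-fold higher, and Spink2 was likewise detected there alone, without a bound above 1. The protease-activated receptors, which trypsin-like proteases switch on by cutting, were dim. F2r stood at 1.48, with levels of -1.24 on WT and 0.24 on Nrdc-cKO, F2rl2 was detected in Nrdc-cKO alone with no bound above 1, and F2rl1, the trypsin receptor PAR2, and F2rl3 were not well above background on either array.

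**Figure D5:**
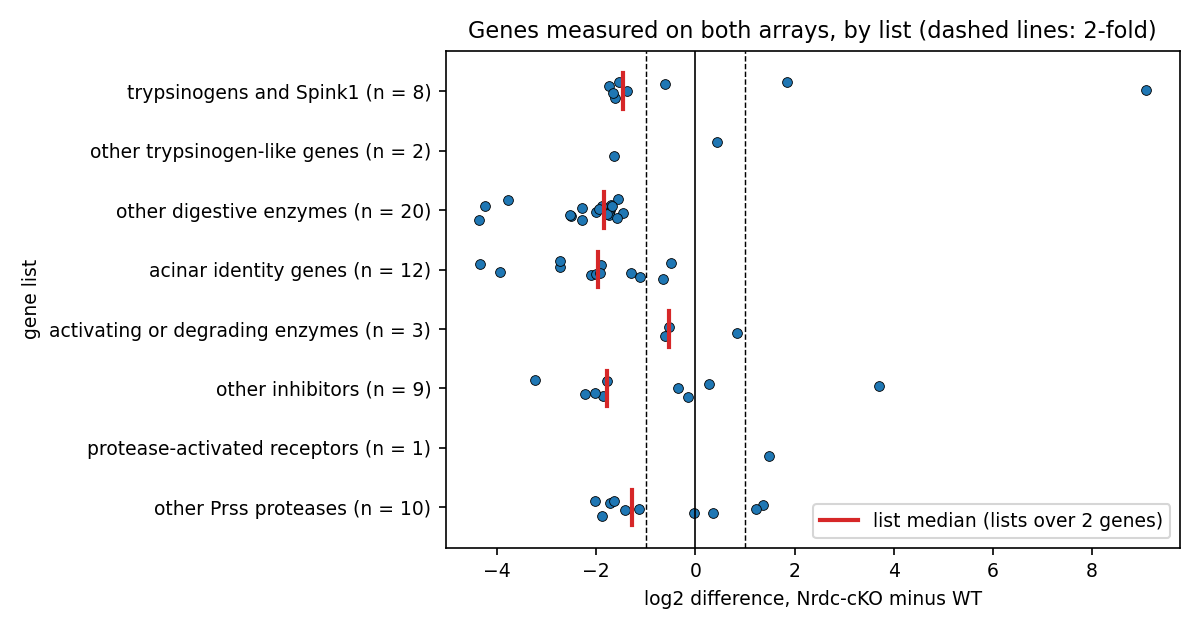
Log2 difference, Nrdc-cKO minus WT, of the genes measured on both arrays (points, spread vertically for legibility) in the list of trypsinogens and Spink1 and in related lists, with the list median as a red line for lists over 2 genes. All 20 other digestive enzymes lie below -1, while the trypsinogen list has 2 points beyond 1, Prss1 and 1810009J06Rik.

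Markers of other cell types differed between the arrays beside these values, while 12.8% of all named genes passed 2-fold upwards and 17.3% downwards. Islet endocrine markers were at least 2-fold higher in 9 of 9 measured genes, with the summed level of the list 7.75 times as high on the Nrdc-cKO array. The summed level was 3.12 times as high for macrophage markers (7 of 8 genes higher) and 3.81 times for stellate cell and fibroblast markers (8 of 8). Of the fat cell markers, 2 of 3 measured genes were higher, Lep was lower at -1.87, and 5 more were detected in Nrdc-cKO alone. The summed level of the acinar identity genes was 0.220 times that on the WT array, with 10 of 12 genes at least 2-fold lower. Before scaling the median log2 difference of these genes was -0.28, against -1.96 after it, so the size of this drop rests on the scaling. T cell markers had 3 of 8 genes with a value on both arrays, 1 of them lower and 0 higher, and 3 more were detected in Nrdc-cKO alone. B cell markers had 2 of 5 genes with a value on both arrays, 1 of them lower and 0 higher, and 3 more detected in Nrdc-cKO alone. Duct cell markers were mixed, with 3 of 8 genes higher, 2 lower and 3 within 2-fold. Of 6 endothelial markers, 1 was higher and 5 were within 2-fold. Of 7 intestinal epithelium markers, 4 were not well above background on either array. The part of cell composition in the values of the trypsinogens and Spink1 was not tested.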

How the data were processed

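Cy3-labelled pancreas RNA of 1 WT and 1 Nrdc-cKO mouse was measured on 1-colour Agilent arrays, and groups were taken from the sample titles. The deposited scanner files hold processed intensity values on a linear scale, corrected for background by Agilent Feature Extraction, with the version given as 12.0.3.1 per the file headers but as 11.5.1.1 in the submitters' processing notes, with median intensities and 0-or-1 flags. The authors' deposited value table holds the same intensities times a constant, 4.37 in WT and 1.92 in Nrdc-cKO, linear and not centred, for a reason not given in the sources. Spots flagged as outliers were left out. The log2 processed signal minus each array's 75th percentile over non-control probes was used. Detection of a probe required a share of 0.5 or more of its spots above background by the software's flag. The threshold was 2-fold. A listed gene's value was the mean over its detected probes, and a list's summed level adds linear scaled signals. Accessions were matched to the RefSeq table of GRCm38.p6, used for names and gene order, and Nrdc carries an older symbol there.

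Repeat spots of 286 probes had a median SD of 0.032 in the log2 difference, which covers spotting only. Members and gene lists were chosen with earlier results of these data known. All members, all measured genes of the activation, inhibitor and receptor lists, up to 3 extremes of other lists, and the 5 genes nearest to Spink1 and to the trypsinogen median were named, except 1 gene near the trypsinogen median that is not reported here. Promoter windows came from RefSeq, and pairs were aligned globally with free end gaps (biopython 1.88). Normexp (offset 50) used limma 3.58.1.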

Additional observations from a re-analysis of the deposited data

How the results depend on the processing

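No paired analysis was possible because WT and Nrdc-cKO were measured on a single array each, and leaving out a replicate was not possible either. Prss1 and 1810009J06Rik were higher in all 10 scaling or background alternatives. The 5 lower members numbered 0 with quantile scaling, loess, spike-in scaling, normexp then quantile scaling, a shift set by 200 bright probes and a 4-fold threshold, 3 with normexp then 75th percentile and 4 in the authors' value table. The 2 higher members numbered 3 with spike-in scaling, where Spink1 passed 2-fold, and 1 under the stricter 4-fold threshold. Among the 24337 probes detected on both arrays, spike-in scaling took 77.1% past 2-fold upwards and 1.03% downwards. Passing 2-fold upwards was thus the usual outcome there. The downward share was 17.7% with quantile scaling, 15.4% with loess and 6.96% with normexp then quantile scaling. It was 3.97% with the bright-probe shift, 10.3% with normexp then 75th percentile and 9.34% in the authors' value table. Upward shares in these settings ran from 6.82% to 34.6%.

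The trypsinogen median, -1.53, became 0.045 with quantile scaling, 0.36 with spike-in scaling, 0.14 with normexp then quantile scaling, -0.49 with loess, -1.04 in the authors' value table, -0.98 with normexp then 75th percentile and -0.61 with the bright-probe shift, and it was 0.43 as a mean. Spink1, -0.62, became 0.98, 1.27, 0.96, 0.47, -0.13, -0.05 (-0.054) and 0.30 in the same settings, in that order. Prss1, 1.85, became 2.79, 3.75, 2.91, 2.71, 2.35, 2.40 and 2.77. Single members turned above 0 with spike-in scaling (Prss2 0.15, 2210010C04Rik 0.51, Try5 0.36, Try4 0.23, Prss3 0.28), with quantile scaling (Try5 0.21, Prss3 0.045) and with normexp then quantile scaling (Prss2 0.014, Try5 0.21, Prss3 0.14). Constant shifts move all members and all other probes alike by construction, and elsewhere the cause was not tested. With spike-in scaling the median of all probes detected on both arrays was 1.63. The per-member values, and leaving out Prss1 and 1810009J06Rik, which gave a trypsinogen median of -1.62, were added after the data had been seen.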

Other observations

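The wider Prss group of serine proteases outside the trypsinogen cluster was mostly dim in the pancreas. Of 34 genes, 10 were measured on both arrays, 18 were not well above background on either, 4 were detected in Nrdc-cKO alone and 2 had no probe named here. Past 2-fold, 6 of the 10 were lower and 2 were higher, and their median log2 difference was -1.28, against 17.3% lower and 12.8% higher among named genes. The lowest were Prss33 (-2.02), Prss54 (-1.89) and Prss8 (-1.71), the gene for prostasin, and the highest were Prss23 (1.36), Prss53 (1.21, with 2 probes at 0.41 and 2.02) and Prss48 (0.36). With spike-in scaling every log2 difference stands 1.90 higher, so values between -1.90 and 0 turn positive there.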
